A study of Mus musculus with 10 samples.

Results

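Cluster 15 is a group of 60 cells out of 706 single cells of the mouse paraventricular hypothalamus (PVH) that were kept after quality control, and its members are the cells to which the authors' table gives cluster number 15. Its working name, *Trh*, *Reln* neurons, comes from thyrotropin-releasing hormone (*Trh*) and reelin (*Reln*), with netrin G1 (*Ntng1*) as a further marker. It was set against the 604 cells of the other 11 PVH clusters, without clusters 5, 6 and 11, which the authors place outside the PVH. All cells belong to the same condition: male mice older than 7 weeks from a cross of Agrp-IRES-Cre with the tdTomato reporter Ai9, with slices kept in activity blockers and pronase before cells were picked by hand for 10 plates (Q5 to Q8, AL5, AL6 and JM5 to JM8). The labels call the picked cells labelled neurons, whereas the methods use the labelled AGRP axons only to find the PVH boundary, and neither source ties animals to plates. The plate was therefore the replicate, so that p-values measure the spread between plates, which may be technical in part.

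The PVH is a nucleus of mostly glutamatergic neurons, many of which release a peptide hormone. Neurons with *Trh* head the thyroid axis: the peptide is cut from a prohormone, amidated and released, and thyroid hormone feeds back on its gene. Reelin is a secreted glycoprotein that binds lipoprotein receptors and acts through the adaptor Dab1 in neuronal migration and at synapses. Netrin G1 is a membrane-anchored relative of the netrins that binds the ligand Ngl1 (*Lrrc4c*) at contacts between axons and dendrites.

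Total unique molecular identifiers (UMIs, the counts of captured transcripts) per cell ranged from 53004 to 326325 in cluster 15. The plates held 7 (Q5), 2 (Q6), 10 (Q7), 3 (Q8), 6 (AL5), 1 (AL6), 5 (JM5), 5 (JM6), 8 (JM7) and 13 (JM8) of its cells. Its share of the PVH cells of a plate was 7.15% ± 4.92 (SD, n = 4) in the Q plates and 11.3% ± 7.02 (n = 6) in the AL and JM plates, a difference within the spread between plates (exact two-sided permutation test, p = 0.338, smallest possible p = 0.00476). The 8 plates with at least 3 cells entered the comparisons by plate. Well barcodes repeat between plates of the same number, and 6 of the 60 cells carried a barcode that another cell of the cluster had on another plate.

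The cells were neurons. *Tubb3* was detected (at least 1 UMI) in 60 of 60 cells, *Snap25* in 58 and *Rbfox3* in 50. *Otp*, a homeobox factor of PVH neurons, was detected in 56 of 60 cells, *Slc17a6*, the vesicular glutamate transporter Vglut2, in 47, and *Sim1*, the lineage factor of the PVH, in 28, against 370 of 604 other PVH cells. The vesicular GABA transporter *Slc32a1* was found in 0 of 60, for an upper limit of 5% of cells with a UMI, and *Gad1* in 1, although *Gad2*, a glutamate decarboxylase, was detected in 18. Of 25 markers of glia and vessels, 15 were at 0 in the cluster, among them *Aqp4*, *Gfap*, *Olig2*, *Opalin*, *Ctss* and *Cldn5*. The list's summed level by plate was 0 to 133 CPM (UMIs of a gene scaled to a library of fixed size) in cluster 15 and 46.0 to 88.7 CPM in the other cells, with *Mbp* in 19 cells and *Slc1a2* in 12 as the widest of its members. The summed level was higher in cluster 15 on 6 of 8 plates, which was not tested. Its means were 75.9 ± 44.3 CPM in cluster 15 and 61.9 ± 15.3 CPM in the other cells (SD, n = 8 plates).

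The markers in the name did not run through the cluster as a whole. *Trh* was detected in 25 of 60 cells (41.7%, 95% exact Clopper-Pearson interval 29.1% to 55.1%), *Reln* in 33 (55.0%, 41.6% to 67.9%) and *Ntng1* in 26 (43.3%, 30.6% to 56.8%). Intervals cover counting error only. In 8 cells both *Trh* and *Reln* were detected, and in 5 cells none of the 3 genes was. With at least 10 UMIs required, *Trh* was found in 18 cells, *Reln* in 27 and both in 2. Of the cells with *Trh*, 11 had neither other marker, and of those with *Reln*, 14 had neither. The data thus describe cells with *Trh*, cells with *Reln*, cells with both and cells with neither under the same cluster number. The group is called cluster 15 here.

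Low counts in clusters that hold little of a gene serve as a guide to background. Their source was not tested, and plates are pooled in these counts. Cluster 4 had *Trh* in 0 of its 22 cells and cluster 3 in 2 of 36. Cluster 1 had it in 38 of 221, where the median among the cells with it was 1 UMI, against 210 UMIs in cluster 15. *Reln* was detected in 0 of 53 cells of cluster 2 and in 8 of 221 of cluster 1, with a median of 1 UMI among these and 27 UMIs in cluster 15. Median depth was 87943 UMIs in cluster 15 and 183836 UMIs in cluster 1, so the shares in cluster 15 stood above those of cluster 1 in spite of fewer UMIs. With each cell thinned to 63413 UMIs, which left 50 cells of the cluster, *Trh* was detected in 38%, *Reln* in 54% and *Ntng1* in 44%.

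**Figure D1:**
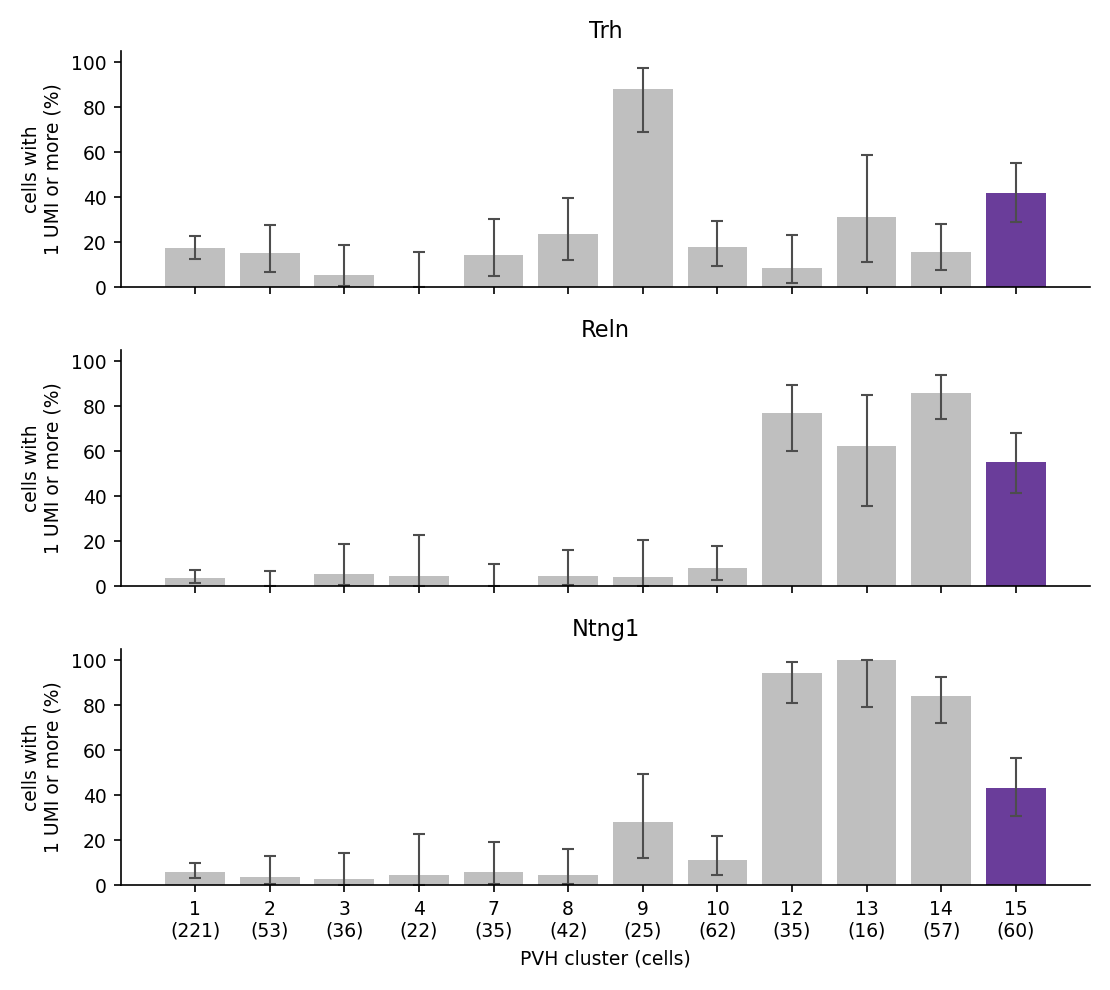
Percent of cells with at least 1 UMI of *Trh*, *Reln* and *Ntng1* in each of the 12 PVH clusters, with cells per cluster in parentheses, exact 95% intervals as error bars and cluster 15 in purple. Cluster 9 had the highest share for *Trh* (22 of 25 cells) and cluster 14 for *Reln* (49 of 57), and cluster 15 stood at 41.7%, 55.0% and 43.3%.

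By level, cluster 15 followed cluster 9 for *Trh* and clusters 14 and 12 for *Reln*. *Trh* had its highest mean in cluster 9 (2628 ± 674 CPM, SD over n = 4 plates), followed by cluster 15 (1512 ± 1732 CPM, n = 8), cluster 8 (508 ± 1006 CPM, n = 4) and cluster 13 (365 ± 214 CPM, n = 3), and the ranges of these neighbours overlapped. *Reln* was highest in cluster 14 (289 ± 106 CPM, n = 8), followed by cluster 12 (191 ± 98.9 CPM, n = 6), cluster 15 (156 ± 118 CPM, n = 8) and cluster 13 (101 ± 68.5 CPM, n = 3), again with overlapping ranges. *Ntng1* ran from cluster 14 (191 ± 95.1 CPM) over clusters 12 and 13 to cluster 15 (94.2 ± 107 CPM), where it lay between 0 and 274 CPM.

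Counted over all 60 cells, *Trh* and *Reln* went with different partners. The Q plates alone did not show this for *Trh* and *Cartpt*, and showed little of it for *Reln* and *Pdyn*. Of the 25 cells with *Trh*, 15 also had *Cartpt*, the cocaine- and amphetamine-regulated transcript of many hypothalamic neurons, against 8 of the 35 cells without it. *Sst*, somatostatin, was detected in 14 of 25 cells with *Trh* and 9 of 35 without, but with at least 10 UMIs of each it was found in 3 of 18 cells with *Trh* and 6 of 42 without. On the Q plates *Sst* was detected in 91.3% to 98.4% of the other PVH cells too. Of the 33 cells with *Reln*, 20 also had *Pdyn*, prodynorphin, and 22 had *Sim1*, against 3 and 6 of the 27 cells without *Reln*. *Cartpt* and *Pdyn* were found together in 3 cells. *Gap43*, a growth-cone protein of axons, crossed these lines and was detected in all 60. These counts are descriptions of cells, several of which share a plate.

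Part of this moved with the plate batch. In the 38 cells of the AL and JM plates, *Trh* was detected in 10, *Reln* in 25 and both in 2, and no cell had at least 10 UMIs of each. *Pdyn* was there in 18 of 25 cells with *Reln* and in 1 of 13 without. In the 22 cells of the Q plates, *Trh* was detected in 15, *Reln* in 8 and both in 6. With at least 10 UMIs required, *Reln* was found in 6 of the Q cells and both in 2. *Trh* was also detected in other PVH cells of the Q plates, from 10 of 77 on Q8 to 32 of 64 on Q7. *Cartpt* was there in 11 of 15 cells with *Trh* and 5 of 7 without, and in 4 of 10 and 3 of 28 on the AL and JM plates. Of the 8 Q cells with *Reln*, *Pdyn* was detected in 2, against 2 of the 14 without. All 4 Q cells with *Pdyn* also had *Trh* (4 of 15 cells with *Trh* and 0 of 7 without). *Sst* was detected in 20 of all 22 Q cells. Cells with *Reln* as the sole marker numbered 14 of 38 in the AL and JM plates and 0 of 22 in the Q plates. The Q cells were also deeper (median 173570 against 74908 UMIs), and the part of depth in these counts was not tested beyond the thinning, where 0 of 22 Q cells and 12 of 28 others had *Reln* alone.

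**Figure D2:**
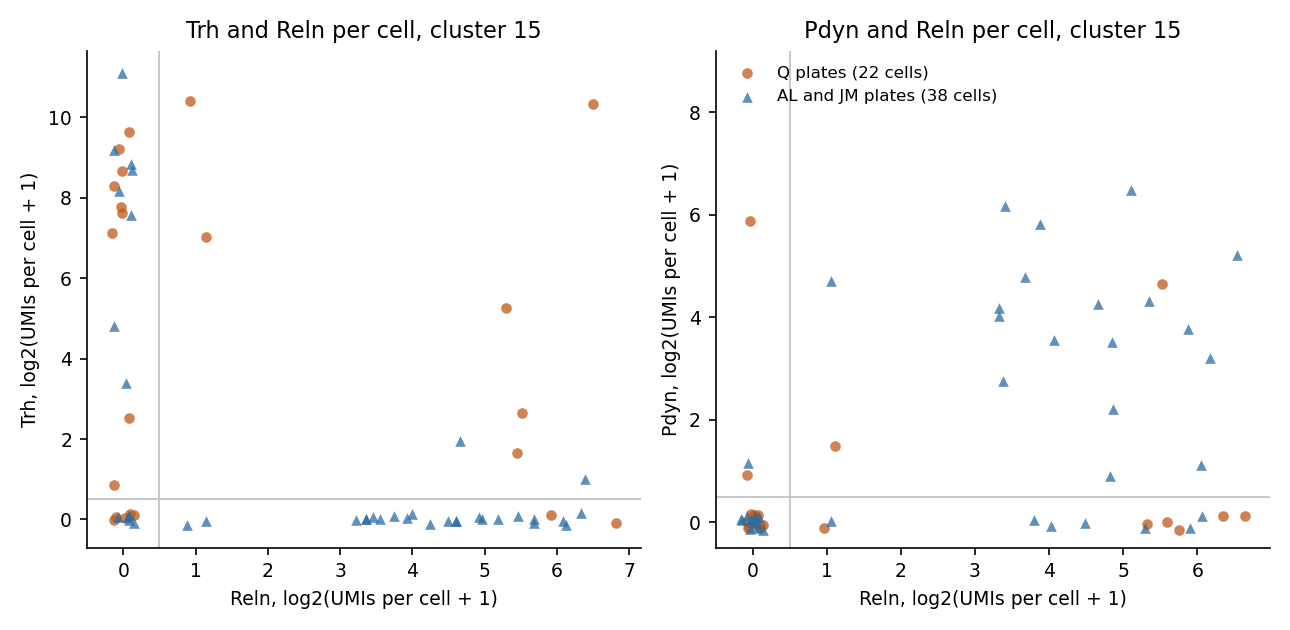
UMIs of *Trh* (left) and *Pdyn* (right) against those of *Reln* in each of the 60 cells of cluster 15, both axes as log2(UMIs + 1), with Q plates as orange circles and AL and JM plates as blue triangles. Points are moved slightly at random so that cells at 0 can be seen, and the grey lines part cells with 0 UMIs from the rest. On the left most points lie along an axis, 8 cells have both genes, and on the right the 18 triangles with both *Reln* and *Pdyn* fill the upper field.

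The cells of the cluster gave fewer UMIs than other PVH cells of their plates. The geometric mean of total UMIs was 0.723 times that of the other PVH cells (log2 difference -0.47 ± 0.39, SD over n = 8 plates), and it was lower on 8 of 8 plates (exact two-sided permutation test of signs within plates, p = 0.00781, the smallest possible, adjusted p = 0.0313). Gene UMIs per UMI of the ERCC spike-ins (RNA standards) stood at 0.750 times the others' ratio and were lower on 7 of 8 plates (p = 0.0156, adjusted p = 0.0313). Genes detected at equal UMIs numbered 4422 ± 910 in cluster 15 and 4815 ± 554 in the others, lower on 7 of 8 plates (p = 0.0313, adjusted p = 0.0417). The adjusted p-values cover these 3 tests and that of the share by batch. On the 5 AL and JM plates alone the differences were -0.20, -0.25 and -170 genes, and 5 plates cannot give a p under 0.05. With cluster 1 left out of the other cells, the ratio to ERCC and the genes at equal UMIs differed by -0.23 (p = 0.0703, exact permutation test) and -257 genes (p = 0.0625). By medians per cell, which pool plates, low values were found elsewhere too. Cluster 12 had fewer total UMIs (85124 against 87943), but its other medians were higher. Cluster 9 gave a lower ratio to ERCC (6.11 against 6.41) and fewer genes at equal UMIs (3977 against 4353), but more total UMIs. Clusters 14 and 1 stood above cluster 15 in each of these medians.

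**Figure D3:**
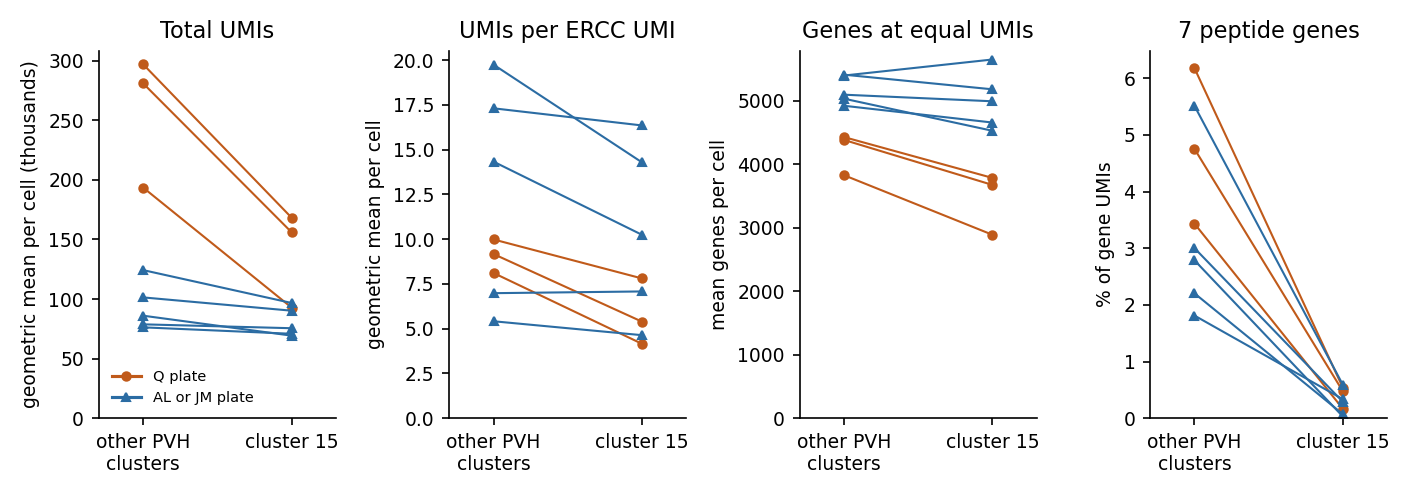
Total UMIs per cell, gene UMIs per ERCC UMI, genes detected at 63413 UMIs and percent of gene UMIs from 7 peptide genes (*Oxt*, *Avp*, *Crh*, *Trh*, *Sst*, *Penk* and *Pdyn*), each line joining the other PVH cells and cluster 15 of a plate. The first and last measures were lower in cluster 15 on 8 of 8 plates, the others on 7 of 8.

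Peptide transcripts made up little of this RNA. The 7 peptide genes *Oxt*, *Avp*, *Crh*, *Trh*, *Sst*, *Penk* and *Pdyn* took 0.312% ± 0.212 of gene UMIs in cluster 15 and 3.71% ± 1.59 in the other PVH cells (n = 8 plates). The share was lower on every plate and the plate values did not overlap between the groups. It was not particular to the cluster: the median per cell was 0.0987% here, 0.125% for cluster 14 and 0.262% for cluster 9, against 7.88% in cluster 1. Transcripts of ribosomal proteins took 3.34% ± 1.01 against 4.25% ± 0.858, lower on 8 of 8 plates, and mitochondrial transcripts 3.43% ± 0.793 against 3.29% ± 0.375. Since the clusters were drawn from these genes, no test is given for such shares.

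Across 10322 genes tested on UMIs summed per plate, 7 were higher (0.0678%) and 187 lower (1.81%) in cluster 15 than in the other PVH clusters at an adjusted p under 0.05, or 194 in all (1.88%), by edgeR's quasi-likelihood test with plates as blocks. The same genes made the clusters, so a call states only that a difference was even over the plates. The median log2 fold change of all genes tested was -0.50, and with RLE size factors it was -0.38, where the calls split into 22 higher and 132 lower. Plate Q8 had 3 cells of the cluster, and without it 35 genes were higher and 198 lower. Without plate Q7 the counts were 3 and 111.

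*Pcdh9*, a protocadherin that joins cells, ran from 107 to 657 CPM over the 8 plates of cluster 15 (median 272 CPM) and from 57.8 to 148 CPM in the other cells (median 108 CPM). It was higher on 8 of 8 plates with a log2 fold change of 1.21 (SE 0.23, adjusted p = 0.00764). The call was lost with cluster 1 left out of the other cells, at a log2 fold change of 0.82 (adjusted p = 0.0862, over a range of 6.76e-06 to 0.175 among its alternatives). The direction was kept in the Q plates alone (1.41) and in the AL and JM plates alone (1.09). Neither of these subsets kept the call (adjusted p = 0.175 and 0.0619). Counting these, the call was lost under 4 of the alternatives run. Mean *Pcdh9* was 329 CPM in cluster 10, 326 CPM in cluster 9 and 287 CPM in cluster 15.

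*Gap43*, on chromosome 16 (42248442 to 42340651, minus strand, GRCm38), was the steadiest of the higher genes described. It lay between 1056 and 2028 CPM on the plates of cluster 15, above the 444 to 934 CPM of the other cells. Its log2 fold change was 1.09 (SE 0.15, adjusted p = 0.000562), and it was called under all 19 alternatives run. Also higher were *Atp2b1*, a calcium pump of the plasma membrane (log2 fold change 0.90, SE 0.20), *Camta1*, a calmodulin-binding transcription activator (0.79, SE 0.19), *Prnp*, the prion protein (0.65, SE 0.16, higher on 7 of 8 plates), and *Nap1l5*, an imprinted relative of nucleosome assembly proteins (0.40, SE 0.08). These calls were less stable: *Prnp* lost its call under 14 of 19 alternatives, *Camta1* under 12, *Atp2b1* under 11 and *Nap1l5* under 5, and all of them kept their direction. A single plate left out ended the call on *Atp2b1* (AL5, JM5, JM7, JM8 or Q7, adjusted p = 0.0538 to 0.0938), on *Camta1* (AL5, JM5, JM6, JM8 or Q7, 0.0867 to 0.119) and on *Nap1l5* (Q5, 0.052). Like levels were found in other clusters. *Atp2b1* averaged 506 CPM in cluster 14 (364 CPM in cluster 15), and *Camta1* 352 CPM there (356 CPM). *Prnp* averaged 1151 CPM in cluster 13 (942 CPM in cluster 15), and *Nap1l5* 4157 CPM there (3485 CPM). *Gap43* averaged 1748 CPM in cluster 14 and 1511 CPM in cluster 15.

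The markers of the name were not among the calls. *Trh* (chromosome 6, 92242061 to 92244650, minus strand) ran from 0 CPM on JM6 to 5306 CPM on AL5 with a median of 973 CPM, against 15.1 to 489 CPM in the other cells. It was higher on 7 of 8 plates with a log2 fold change of 2.98 (SE 1.35, adjusted p = 0.395). *Reln* (chromosome 5, 21884454 to 22344702, minus strand) ran from 0 CPM on Q8 to 308 CPM on JM8, against 6.07 to 112 CPM, with a log2 fold change of 1.36 (SE 0.56, adjusted p = 0.272). *Ntng1* (chromosome 3, 109780040 to 110144011, minus strand) was higher on 5 of 8 plates at 0.46 (SE 0.63, adjusted p = 0.768). The groups overlapped for each of the 3 genes. DESeq2 called *Trh* and *Reln* (adjusted p = 0.0289 and 0.0443), and the other alternatives gave 0.282 to 0.705 for *Trh* and 0.0728 to 0.925 for *Reln*. On AL and JM plates alone and without cluster 1 *Ntng1* changed sign.

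**Figure D4:**
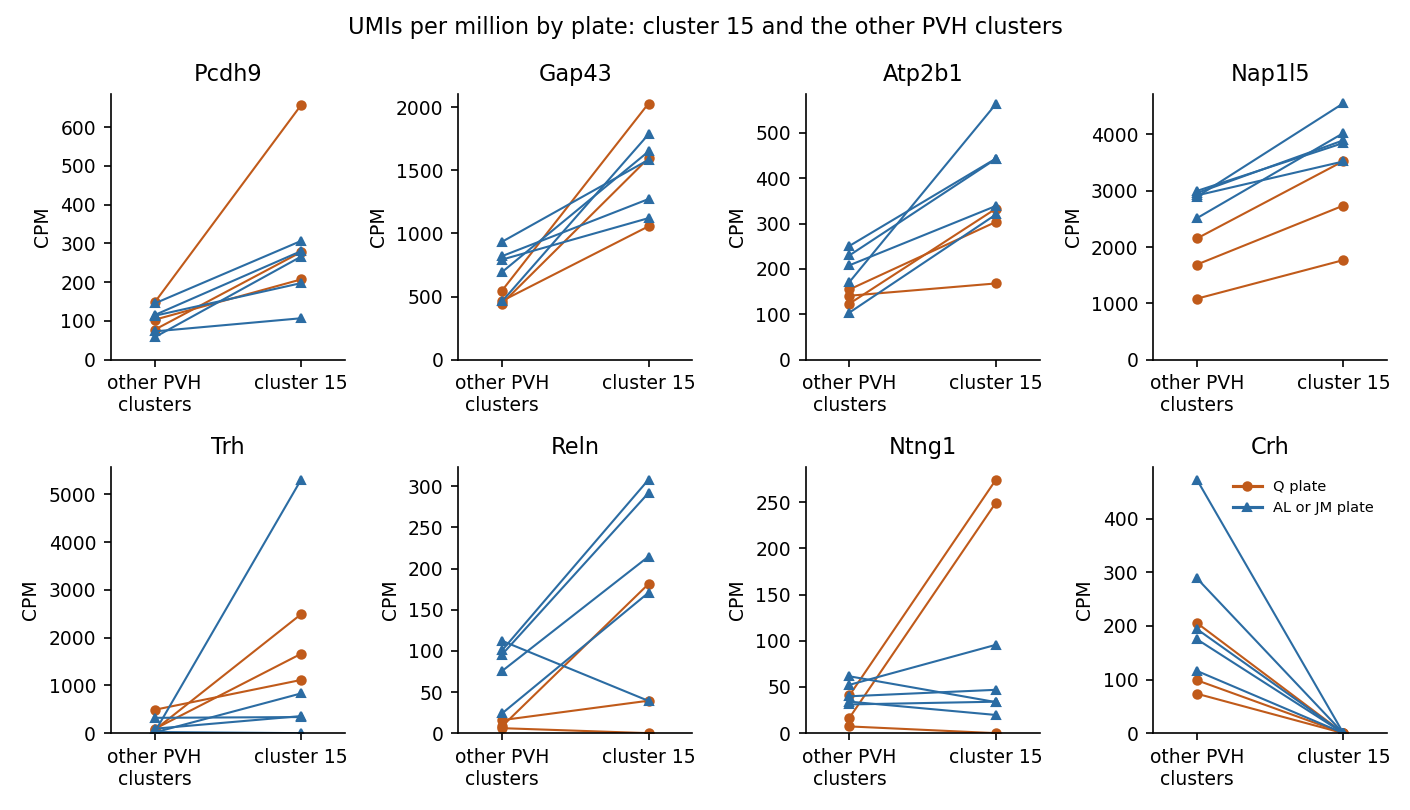
CPM of 8 genes in the other PVH clusters and in cluster 15, each line a plate (Q plates orange, AL and JM plates blue), on linear axes from 0. *Pcdh9*, *Gap43*, *Atp2b1* and *Nap1l5* were higher in cluster 15 on 8 of 8 plates, *Trh* on 7, *Reln* on 6 and *Ntng1* on 5, and *Crh* was at 0 on all 8.

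*Crh*, corticotropin-releasing hormone, was not detected in the cluster. It had 0 UMIs in the 60 cells against 13799 UMIs in the other PVH cells of the 8 plates, where its level was 73.5 to 473 CPM, so that it was at least 341-fold lower, taking 3 UMIs over the group as the floor (adjusted p = 1.7e-05). Most other PVH clusters were low in it as well: its mean was 1743 CPM in cluster 10, 522 CPM in cluster 14 and 465 CPM in cluster 13, and 0.146 CPM (cluster 9) to 20.8 CPM (cluster 4) in the others. *Oxt*, oxytocin, lay between 33.9 and 2523 CPM against 14208 to 58539 CPM (log2 fold change -7.51, SE 0.89, adjusted p = 0.00888), and *Avp*, vasopressin, between 26.1 and 1695 CPM against 4241 to 30448 CPM (-7.15, SE 0.77, adjusted p = 0.00617). Neither overlapped between the groups. Low means were not particular to cluster 15, however. Mean *Oxt* was 478 CPM here, 468 CPM in cluster 2 and 98.0 CPM in cluster 13, against 66959 CPM in cluster 1. Mean *Avp* was 286 CPM here, 246 CPM in cluster 14 and 56.5 CPM in cluster 13, against 69364 CPM in cluster 2. *Oxt* was detected in 57 of 60 cells with a median of 10 UMIs, but at a log2 fold change of -3.18 it was not called with cluster 1 left out (adjusted p = 0.29, the highest of its alternatives). The AL and JM plates alone called neither (adjusted p = 0.171 and 0.149, the latter the highest for *Avp*). *Crh*, *Oxt* and *Avp* were the 3 calls, all lower, among 13 tested genes of the panel of PVH genes.

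A further 6 genes named for the size of their change had 0 UMIs in the cluster on these plates: *Clic1*, *Gstk1*, *Snx31*, *Cntnap5b*, *Fgl1* and *Ppm1j*, against 546 to 2410 UMIs in the other cells. At the same floor they were at least 13.5-fold to 59.5-fold lower. *Vim*, vimentin, an intermediate filament protein, had 1 UMI against 3879 (ratio 287-fold, exact interval 51.5 to 11350), and *Trac*, a T cell receptor constant region, 1 against 2046 (152-fold, 27.2 to 5988). The counting intervals leave the spread between plates aside.

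Some genes that process peptide precursors were lower. Of 9 tested genes of *Trh* processing and degradation, 4 were called lower and 0 higher, beside 1.81% lower among all genes, with a median log2 fold change of -0.57 against -0.50 for all genes. *Pcsk1*, the prohormone convertase that cuts pro-TRH, lay between 0 and 75.6 CPM against 129 to 183 CPM (-3.19, SE 0.48, adjusted p = 0.00116). Other clusters were low in it too. Its mean was 24.9 CPM here, 26.5 CPM in cluster 14, 36.3 CPM in cluster 10 and 48.7 CPM in cluster 9. The highest mean was 254 CPM, in cluster 13. *Pam*, which amidates the peptide, lay between 159 and 473 CPM against 353 to 685 CPM (-1.29, SE 0.17, adjusted p = 0.000327), lower within each of 8 plates. *Scg5*, a partner of the second convertase, and *Pcsk1n*, an inhibitor of the first, were lower at -0.57 and -0.51. Both lay close to the median of all genes, but below the median of -0.29 for genes with at least 50 CPM in the other cells. *Pcsk2*, the second convertase, was not called (0.46, SE 0.59), nor was *Trhde*, the TRH-degrading ectoenzyme (0.65, SE 0.85), which was detected in 25 of 60 cells and 101 of 604 others. Of 12 tested genes of thyroid hormone feedback 0 were called, with a median of -0.23. The receptor *Thra* stood at -0.14 (SE 0.30).

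Few partners of reelin and netrin G1 were called. Of 19 tested genes of the reelin pathway 1 was called lower, beside 1.81% lower among all genes. It was *Lrpap1*, a chaperone of lipoprotein receptors (-0.89, SE 0.20, adjusted p = 0.0207). The list's median was -0.89 against -0.50 for all genes, and 17 of its 19 members were below 0. The receptors *Vldlr* (-1.41, SE 0.81) and *Lrp8* (-0.04, SE 0.90) and the adaptor *Dab1* (-1.05, SE 0.82) were not called. Of 7 tested genes of netrins and their partners 0 were called. *Lrrc4c*, the ligand of netrin G1, stood at -0.98 (SE 0.68), and *Ntng2* had 0 UMIs.

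In the other lists few genes were called, beside 1.81% lower and 0.0678% higher among all genes tested. Of 17 other neuropeptide genes tested, 2 were called lower, *Tac1*, the precursor of substance P (-4.74, SE 0.84), and *Nucb2*, the precursor of nesfatin (-1.33, SE 0.25). *Cartpt* was spread too widely to be called (-0.43, SE 1.38, 0 to 3328 CPM). Among 44 transmitter receptor genes the metabotropic glutamate receptor *Grm3* was lower (-4.62, SE 1.09), and the list's median was -0.44. Of 22 receptors of feeding and stress signals 1 was lower, the vasopressin receptor *Avpr1a* (-5.39, SE 1.35), and the list had 0 members above 0 with a median of -1.03. Among 8 transmitter identity genes *Th*, tyrosine hydroxylase, was lower (-3.17, SE 0.65), also the 1 call among markers of other neurons. Of 46 voltage-gated channels 1 was lower, *Kcnmb4*, a subunit of the BK potassium channel (-3.38, SE 0.67), and of 68 adhesion and guidance genes *Pcdh9* was the 1 call.

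Lineage factors gave 0 calls among 28 tested (median -0.54), with *Otp* at -0.22 (SE 0.16) and *Sim1* at -0.81 (SE 0.74). Calcium-binding genes gave 0 of 12 (median -0.51). Of 7 general neuron genes *Uchl1* was lower (-0.44, SE 0.09). Of 17 activity and stress genes 2 were lower, *Hspa5*, a chaperone of the endoplasmic reticulum (-1.05, SE 0.12), and *Fosl2*, a member of the Fos family (-4.32, SE 0.80), with a median of -1.44. *Fos* stood at -2.53 (SE 0.60, adjusted p = 0.0729) and missed the threshold. Genes of ribosomal proteins were chosen as a list after their values were seen. Of 84 tested, 28 were called lower and 0 higher, beside 1.81% lower among all genes tested. All 84 were below 0. Their median was -0.59, against -0.50 for all genes and -0.29 for the 3751 genes with at least 50 CPM in the other cells.

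By the limits that the methods set for marker genes, on in over 40% of a cluster's cells and off in under 5%, cluster 15 had no gene off in all 11 other PVH clusters, as was the case for 9 of these 11. Of 4610 genes on in the cluster, 0 were off in 8 or more of the 11 other PVH clusters. *Reln* came nearest, off in 6, followed by *Trhde*, off in 5. In the other clusters the number of genes off in at least 8 ran from 0 in cluster 1 and 1 in cluster 8 to 10 in cluster 9 and 11 in cluster 7.

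Cluster 14 gave the fewest calls of 3 clusters compared. In a joint fit of all PVH clusters, 3 genes were higher (0.0229%) and 1 lower (0.00764%) of 13082 tested. *Crh* had 0 UMIs against 3338 in cluster 14. *Ddc*, aromatic amino acid decarboxylase, was higher at 36.7 ± 32.7 against 0.0908 ± 0.257 CPM (SD, n = 8 and 8 plates, adjusted p = 0.0131), *Plk2*, a kinase induced by activity, at 25.2 ± 32.6 against 2.17 ± 5.98 CPM, and *Pam* at 254 ± 107 against 122 ± 74.1 CPM. *Gap43* was not called, at 1511 ± 336 against 1748 ± 313 CPM. *Trh* stood at 1512 ± 1732 against 71.9 ± 126 CPM and was not called (adjusted p = 0.345). DESeq2 called 365 genes. In sums of the 2 clusters alone, and with at least 5 cells per sum, 0 genes were higher and 1 was lower, so the calls on *Ddc*, *Plk2* and *Pam* were lost there.

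Against cluster 9, the cluster with the highest *Trh*, 63 genes were higher (0.482%) and 35 lower (0.268%). The 2 clusters shared 3 plates with enough cells, and in sums of these clusters alone 1 gene was higher and 2 lower, of which 2 were among the 98 calls. *Reln* was higher at 156 ± 118 against 0.146 ± 0.292 CPM (1119 UMIs against 1, adjusted p = 0.000118). *Serpinf1*, *Cse1l* and *Pik3r3* had 358, 261 and 311 UMIs in cluster 15 and 0 in cluster 9, as did the unnamed transcript *RP23-345D18.4* with 201. *Pou3f2*, a POU factor of the PVH lineage (132 against 3.04 CPM), *Foxp2* (125 against 0.146 CPM) and the axonal neurofilament *Nefl* (707 against 110 CPM) were higher too. *Rgcc*, *Col6a5* and *Gm42637* had 0 UMIs in cluster 15, with *F730043M19Rik* at 1 and *Omp*, the olfactory marker protein, at 10 against 902. *Trh* itself was not called (-0.56, SE 1.87).

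Against cluster 12, which shares *Reln* and *Ntng1* and has cells on AL and JM plates only, 7 genes were higher (0.0535%) and 6 lower (0.0459%). *Trh* was higher at 1512 ± 1732 against 1.82 ± 3.91 CPM (adjusted p = 0.0256), and its mean on the 5 AL and JM plates of cluster 15 was 1367 ± 2222 CPM. With at least 5 cells per sum 0 genes were higher and 2 lower, so this call and the other higher calls were lost. *Cbln2*, a synaptic organizer, and *Htr2c*, a serotonin receptor, had 1024 and 420 UMIs against 0 in cluster 12, and *Gsta4* and *RP23-291B1.2* had 218 each against 0. *Oxt* was lower at 478 ± 847 against 12960 ± 5093 CPM, and *Inhbb*, an inhibin subunit, had 0 UMIs against 272. *Fth1* (log2 fold change -0.72, SE 0.15), *Mllt11* (-0.57, SE 0.13) and *Calm2* (-0.51, SE 0.09) were lower by less.

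Within cluster 15, 57 genes were higher (0.699%) and 27 lower (0.331%) in the 3 Q plates than in the 5 AL and JM plates, of 8159 tested. The batches hold different plates and perhaps animals, which cannot be told apart. *Sst* was the largest of the higher genes, at 36.6 to 1841 CPM in the Q plates and 0 to 20.4 CPM in the others (log2 fold change 7.35, SE 1.39, adjusted p = 0.0488). The other PVH cells moved the same way, at 2250 ± 537 against 462 ± 222 CPM. *Spag7*, *Erdr1*, *Tmem256* and the mitochondrial ribosomal RNA *mt-Rnr1* followed, the last at 7289 ± 901 against 1041 ± 203 CPM in cluster 15 and 5231 ± 484 against 942 ± 141 CPM in the other cells. *Gm10800*, *Doc2a*, *Prph*, *Nipa2* and *Cep120* were lowest in the Q plates, with *Gm10800* and *Doc2a* at 0 CPM there. The count of 84 calls was 5 without plate Q5, 7 without JM5, 6 without JM6, 7 without JM7 and 26 without JM8, but 146 without Q7 and 163 without Q8. *Trh* (0.41, SE 1.62) and *Reln* (-1.33, SE 0.89) were not called between batches.

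The difference between cluster 15 and the other cells was itself compared between batches in an interaction test over 12556 genes, with 2 calls (0.0159%), both lower in the Q plates. The count was 0 without plate AL5 or JM7, 1 without JM5, JM8, Q5 or Q8, and 26 without Q7. *Prph*, peripherin, an intermediate filament protein, was at 0.179 ± 0.311 CPM in the cluster on Q plates against 77.1 ± 30.7 CPM in the other cells there, and at 84.9 ± 52.9 against 84.7 ± 23.3 CPM on AL and JM plates (log2 difference -8.08, SE 1.36, adjusted p = 0.0418), where the size of the fitted difference rests on 1 UMI in the Q plates. *Tppp3*, a tubulin polymerization protein, was at 202 ± 130 against 779 ± 181 CPM and at 488 ± 149 against 529 ± 74.1 CPM (-2.16, SE 0.35, adjusted p = 0.0418). *Gad2* missed the threshold (4.90, SE 1.18, adjusted p = 0.323), with a log2 fold change of 4.31 in the Q plates alone and -0.65 in the AL and JM plates alone.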

How the data were processed

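Each plate is a Smart-SCRB library in which cells were reverse transcribed with barcoded primers and pooled. The authors deposited raw UMI counts per gene and well and per ERCC spike-in and well, with a table of the cells kept and their cluster numbers. The submitters' processing notes name Trimmomatic 0.36, STAR 2.5.3a and GRCm38.p5, while the counter, its gene models and how UMIs were collapsed are not given in the sources used here. The labels and the methods differ on sequencer and library kit. The authors made the clusters by iterative clustering of variable genes. The list of well barcodes was used only for how barcodes repeat.

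Counts were used as deposited. UMIs were summed per plate and side (at least 3 cells) and tested with edgeR 4.0.16 (TMM, filterByExpr, robust quasi-likelihood F test, plate as a block, Benjamini-Hochberg adjustment over all genes tested) in R 4.3.3. DESeq2 1.42.0 was an alternative. CPM are the UMIs of a gene scaled to the same total of gene UMIs in each sum. Clusters 14, 9 and 12 were contrasted in a single fit of 73 sums of PVH clusters. Genes per cell were counted after thinning to 63413 UMIs, the 10th percentile of PVH cells, which left out 10 cells of cluster 15 and 57 others. Exact permutation tests, two-sided, were run over plates with numpy 2.4.6, and exact intervals came from scipy 1.17.1. The tests were checked on simulated data, with 1 exception. The contrasts of clusters were simulated in sums of 2 clusters alone, so the joint fit was not checked in this way. Depth limits what can be seen of low genes: a count of 0 was read with a limit of 3 counts. Both sides of a comparison come from the same plate, which is the source of the pairing. The blocked fit is the main one.

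The cluster, the 18 gene lists and the tests were chosen with earlier results of these data known. Genes were named as members of the lists, as the called genes with the largest changes that were even over plates, as the 5 largest changes each way between clusters or batches, or by the on and off limits. *Prnp*, *Nefl*, *Tppp3* and the ribosomal genes fall outside these rules and were picked once their values had been seen. Gene positions are from GENCODE M21 on GRCm38. No sequence is shown, since none bears on these counts.

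A few called genes are counted but not reported here by name.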

Additional observations from a re-analysis of the deposited data

Results flagged for a closer look

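Outliers among plates were sought in 23 sets of 8 plate values, and 9 had an extreme plate. This count is not set against a chance rate, since CPM from few cells are skewed. *Vim* and *Trac* had 1 UMI each, so a single plate stands out in any case. Plate Q8, with 3 cells of the cluster, was the high plate for *Gad2* (660 CPM), *Npy1r* (120 CPM) and *Pcdh9* (657 CPM). Plate AL5 was high for *Trh* (5306 CPM), where 1 of its 6 cells had 2192 UMIs. Plate Q5 was high for *Sst* (1841 CPM) and *Trac* (0.857 CPM), plate JM5 for *Oxt* (2523 CPM) and *Vim* (2.80 CPM, 1 UMI), and plate JM7 for *Avp* (1695 CPM). The difference between cluster 15 and the other PVH cells was not the same on Q plates as on the other plates for *Prph* (log2 difference -8.08) and *Tppp3* (-2.16), by the interaction test.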

How the results depend on the processing

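The 194 calls against the other PVH clusters became 810 with DESeq2, 82 without cluster 1, 111 on AL and JM plates alone, 58 on Q plates alone, and 114 to 233 with a plate left out. Without the replicate block by plate they were 71. At least 5 cells per sum, no filter, other size factors, thinning, equal weights and leaving out cluster 14 stayed within 1.5 times. The 4 calls against cluster 14 became 365 with DESeq2, 1 in sums of both clusters alone, 1 with at least 5 cells per sum, 7 without the block and 38 without a filter. The 98 against cluster 9 became 1160 with DESeq2, 3 in sums of both alone and 185 without a filter. The 13 against cluster 12 became 499 with DESeq2, 4 in sums of both alone, 2 with at least 5 cells and 78 without a filter. The 84 calls between batches became 474 with DESeq2, 163 with at least 5 cells, 254 without a filter and 5 to 163 with a plate left out, and the 2 of the interaction 162 with DESeq2 and 0 to 26 with a plate left out. On AL and JM plates alone the log2 differences were -0.20 in total UMIs (p = 0.0625, exact permutation test) and -0.25 in the ratio to ERCC, and -170 genes were the difference at equal UMIs. Without cluster 1 the ratio was -0.23 and the genes -257. With at least 5 cells the genes were -462, and with a plate left out -485 to -315. *Ntng1* changed sign without cluster 1 (-0.21) and on AL and JM plates alone (-0.16), *Gad2* on AL and JM plates alone (-0.65), *Slc17a6* on Q plates alone (-1.02), and *Npy1r* on Q plates alone (0.96) and without the block (0.12). The causes of these changes were not tested. With 60 cells, a gene at 0 UMIs is held only to at most 5% of cells with a UMI.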
